A study of Mus musculus with 8 samples.

Results

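The genes described here were 43 genes of the cell cycle and of DNA replication, listed by symbol for what they are known to do, with no threshold on their values, at a time when earlier results of these data were known. They fell into genes of S phase, when DNA is copied, genes of the G1/S step before it, and genes of G2 and mitosis, when copied chromosomes are separated. Of the 43 genes, 42 had a probe set with that single symbol among 18193 such genes. *Ccnb1* was not analysed here because the annotation used gave it no probe set. Where a gene had several probe sets, the one with the highest mean log2 signal over the 8 arrays stood for the gene.

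The cells were bone marrow-derived dendritic cells (BMDCs), grown for 9 days with GM-CSF from the marrow of 6-week-old female BALB/c mice and collected as non-adherent cells. They were treated with 75 µg/mL of [BF/S+L/Ep], a butanol fraction of an extract of *Echinacea purpurea* stems and leaves, in 0.1% DMSO, or with 0.1% DMSO alone. RNA was taken after 4 h or 12 h and hybridised to Affymetrix Mouse Genome 430 2.0 arrays, with 2 arrays for each of the 4 groups. Every group carried DMSO, and no sample from before treatment was analysed here, so time in DMSO and time in culture cannot be told apart. The arrays at 4 h were numbered 579 to 582 and those at 12 h 583 to 586. Any difference in handling between these 2 sets of arrays cannot be told apart from time either. The study calls the pair of arrays in a group biological replicates from cell culture. No source used here says whether these cultures came from separate mice, so a p-value measures the spread between these cultures and not between animals.

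A cell that divides first loads the MCM helicase on its replication origins, then copies its DNA with the help of the PCNA clamp and a supply of deoxynucleotides, and then enters mitosis under the kinase CDK1 and its cyclins. Many S phase genes are transcribed under E2F factors. Many genes of G2 and mitosis are transcribed later in the cycle, through a promoter element called CHR that usually stands near CCAAT boxes. In marrow cultures with GM-CSF, progenitors divide and dividing cells become fewer as dendritic cells differentiate.

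The promoters of 5 members are shown to compare S phase genes that fell in at least 1 treatment, with and without an E2F-type motif, with genes of mitosis that carry a CHR and CCAAT boxes. Each is the stretch of 200 bases just before the RefSeq transcription start, read 5′ to 3′ on the gene's strand of GRCm38.p6. Capitals mark an E2F-type motif (TTTGGCGC), a CHR (TTTGAA) or a CCAAT box, or the reverse complement of one of them (GCGCCAAA, TTCAAA or ATTGG). The first 2 belong to subunits of the MCM helicase, *Mcm5* (chr8:75109309-75109508, plus strand) and *Mcm6* (chr1:128359706-128359905, minus strand). *Rrm2* (chr12:24708054-24708253, plus strand) encodes the small subunit of ribonucleotide reductase. *Ccnb2* (chr9:70421555-70421754, minus strand) encodes cyclin B2, and *Cdc20* (chr4:118437344-118437543, minus strand) encodes an activator of the ligase that ends mitosis.
Mcm5: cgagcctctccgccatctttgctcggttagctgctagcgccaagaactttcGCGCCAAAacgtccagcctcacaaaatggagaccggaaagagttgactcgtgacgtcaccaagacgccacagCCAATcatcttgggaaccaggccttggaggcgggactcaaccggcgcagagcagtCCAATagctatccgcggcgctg
Mcm6: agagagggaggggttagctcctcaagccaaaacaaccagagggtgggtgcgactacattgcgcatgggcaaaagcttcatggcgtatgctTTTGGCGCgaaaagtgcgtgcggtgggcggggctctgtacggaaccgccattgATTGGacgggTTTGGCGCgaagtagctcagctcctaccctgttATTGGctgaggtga
Rrm2: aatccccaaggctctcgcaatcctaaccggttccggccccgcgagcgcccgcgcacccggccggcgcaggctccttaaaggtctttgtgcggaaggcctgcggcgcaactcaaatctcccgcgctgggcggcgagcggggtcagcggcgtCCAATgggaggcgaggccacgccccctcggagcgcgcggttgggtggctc
Ccnb2: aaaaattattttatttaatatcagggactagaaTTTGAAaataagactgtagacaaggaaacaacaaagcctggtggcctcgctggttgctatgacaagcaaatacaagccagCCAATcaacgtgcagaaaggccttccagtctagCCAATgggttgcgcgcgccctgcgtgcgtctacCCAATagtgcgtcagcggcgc
Cdc20: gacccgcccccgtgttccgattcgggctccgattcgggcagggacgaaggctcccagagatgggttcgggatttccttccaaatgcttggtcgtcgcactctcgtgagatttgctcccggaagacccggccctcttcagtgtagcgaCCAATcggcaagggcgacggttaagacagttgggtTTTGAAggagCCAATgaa

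Signals are the authors' MAS5 intensities, scaled so that the trimmed mean of each array is 500. A difference between groups is a log2 fold change from 1 limma fit of 45037 probe sets, with its standard error (SE), and the adjusted p is Benjamini-Hochberg over all of them. A gene is said to have fallen or risen only where the adjusted p was under 0.05. As a reference for background, 86 probe sets of receptors for smell, pheromones and taste, which BMDCs should lack, were used, and their 95th percentile lay between 66.5 and 107 on the arrays. On 4 or more arrays 40 of the 42 members were above it, and on all 8 arrays 32 were. *Cdc6*, an origin loading factor, and *Tyms*, thymidylate synthase, were above it on 3 arrays each. The median difference between the 2 arrays of a group over the members was between 0.17 and 0.25 on the log2 scale.

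Levels of the members separated the arrays by time. The median log2 signal of the 42 members lay between 9.21 and 9.31 on the 4 arrays at 4 h, and between 7.79 and 7.99 on the 4 arrays at 12 h. For 33 of the 42 members, all 4 arrays at 12 h were under all 4 at 4 h, against 13.0% of the 10879 genes that exceeded the reference on 4 or more arrays. No member had all 4 arrays at 12 h over those at 4 h. In RNA from a whole culture, fewer dividing cells and less of each transcript in every cell cannot be told apart.

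**Figure D1:**
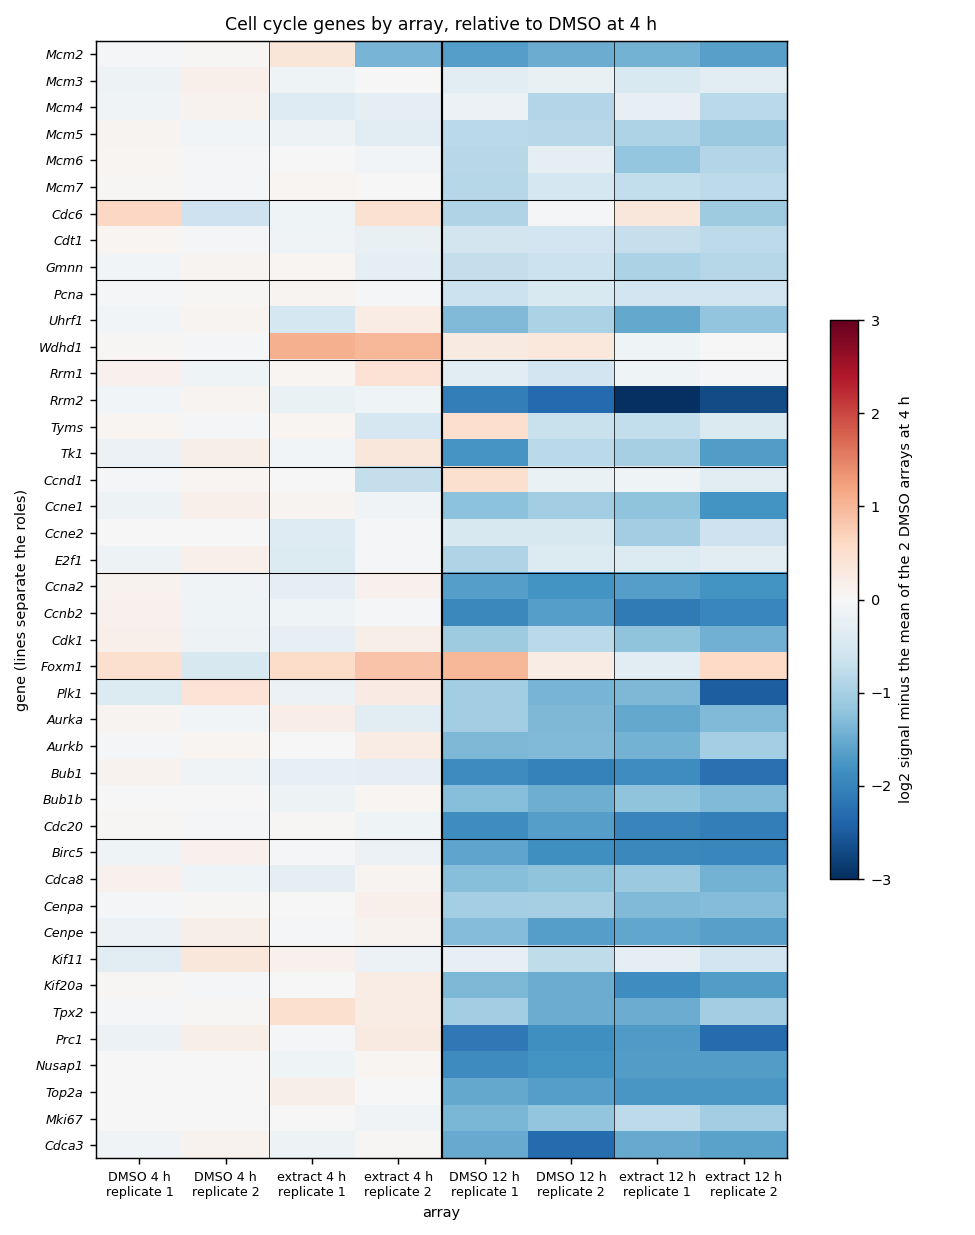
Log2 signal of each of the 42 members (rows, grouped by role) on each of the 8 arrays (columns), minus the mean of the 2 DMSO arrays at 4 h for that gene. The 4 arrays at 12 h are lower for most rows, most of all for the genes of G2 and mitosis, while *Wdhd1* is higher on both extract arrays at 4 h.

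In DMSO, 25 of the 42 members fell from 4 h to 12 h and none rose. The share of all probe sets that fell in that comparison was 0.921%, and it was 2.57% among the genes above the reference. With [BF/S+L/Ep], 29 members fell and none rose, where 1.31% of all probe sets and 3.50% of the genes above the reference fell. When the change was averaged over both treatments, 31 members fell, beside 3.18% of all probe sets and 8.23% of genes above the reference. The median change of the 42 members was -1.17 in DMSO and -1.21 with [BF/S+L/Ep], beside 0.03 and 0.02 over all probe sets. The genes that fell were lower by 1.46-fold to 4.60-fold in DMSO and by 1.48-fold to 6.42-fold with [BF/S+L/Ep].

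All 25 members that fell in DMSO fell with [BF/S+L/Ep] too, which is 100% of the first set and 86.2% of the second. The 2 comparisons use different arrays but share 1 estimate of the spread for each probe set, so their calls are not independent. In each treatment, 36 of 42 members had both arrays at 12 h under both at 4 h, which was so for 29.1% of the genes above the reference in DMSO and for 30.1% with [BF/S+L/Ep]. The fall was not equal among roles. Of 22 genes of G2 and mitosis, 19 fell in DMSO and 20 with [BF/S+L/Ep], with median changes of -1.39 and -1.62. Of 16 S phase genes, 6 and 8 fell, with medians of -0.55 and -0.78, and of 4 G1/S genes, 0 and 1 fell, with medians of -0.57 and -0.38. Under 50% of the 4 h level was left at 12 h for 24 members in DMSO, of which 19 were genes of G2 and mitosis.

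These calls rest on 2 arrays a group. Leaving out 1 array at a time left 13 to 24 members that fell in DMSO and 17 to 28 with [BF/S+L/Ep]. The fit lets the expected spread follow the signal, and without that trend 0 members passed in either treatment, although 30 and 32 had an unadjusted p under 0.05 and a lower level at 12 h, beside 3.89% and 4.48% of all probe sets. With the trend left out and only probe sets that exceeded the reference on 4 or more arrays tested, a setting added after the data were seen, 17 and 21 members fell.

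**Figure D2:**
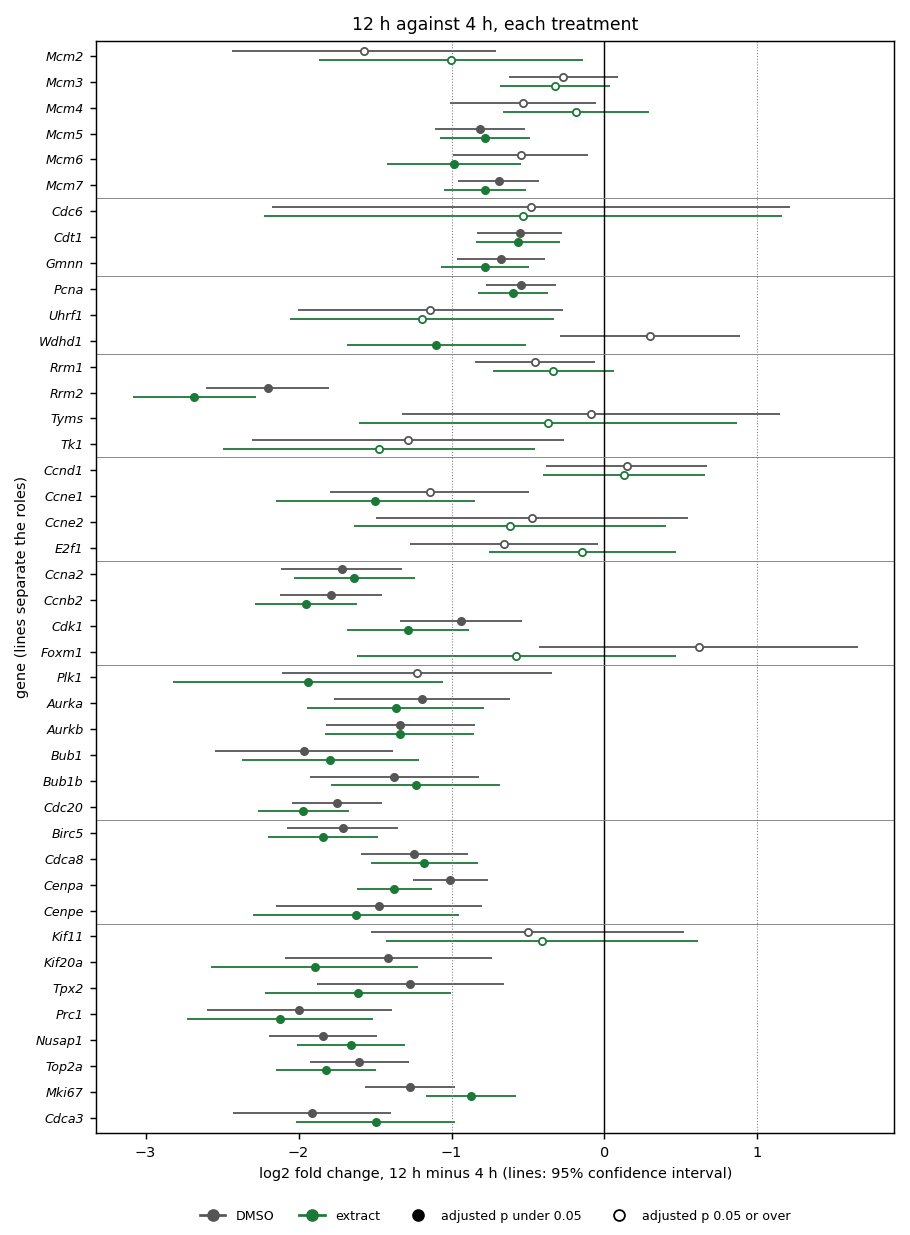
Log2 fold change from 4 h to 12 h of each of the 42 members in DMSO (grey) and with [BF/S+L/Ep] (green, labelled extract), with lines for the 95% confidence interval and filled points where the adjusted p was under 0.05. Filled points lie left of 0 in both treatments, and most of those at or beyond -1 are genes of G2 and mitosis.

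Among S phase genes, *Rrm2* fell most. Its signal was 1011 and 1137 on the DMSO arrays at 4 h, 933 and 986 with [BF/S+L/Ep] at 4 h, 254 and 214 in DMSO at 12 h, and 135 and 166 with [BF/S+L/Ep] at 12 h. No array at 12 h came near an array at 4 h. The change was -2.20 in DMSO (SE 0.19, adjusted p = 2.64e-05), a level 4.60-fold lower, and -2.68 with [BF/S+L/Ep] (SE 0.19, adjusted p = 6.46e-06), a level 6.42-fold lower. *Rrm1*, the large subunit of the same enzyme, changed by -0.45 (adjusted p = 0.309) and -0.33 (adjusted p = 0.468). In each treatment its arrays at 12 h were under those at 4 h. The times overlapped only across treatments, with 555.7 with [BF/S+L/Ep] at 12 h and 531.8 in DMSO at 4 h. A second probe set of *Rrm1*, dimmer on average, fell in both treatments, by 0.87 (adjusted p = 0.0145) and 1.04 (adjusted p = 0.00367) on the log2 scale. *Tk1*, the thymidine kinase of the salvage route, had signals between 151 and 217 at 4 h and between 50.4 and 98 at 12 h, with no overlap, and its averaged change of -1.38 passed (adjusted p = 0.0241) while neither treatment alone did. *Tyms* stayed near the reference on all arrays.

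Of the 6 MCM helicase subunits, *Mcm5* and *Mcm7* fell in both treatments. *Mcm5* had signals of 1376 and 1227 in DMSO and 1164 and 1045 with [BF/S+L/Ep] at 4 h, against 747 and 729.8, and 681 and 605, at 12 h. It fell by 0.82 in DMSO (SE 0.14, adjusted p = 0.00667) and by 0.78 with [BF/S+L/Ep] (SE 0.14, adjusted p = 0.00692). *Mcm7* fell by 0.69 (adjusted p = 0.0103) and 0.78 (adjusted p = 0.00367). *Mcm6* was at 677 and 625 in DMSO and 644 and 616 with [BF/S+L/Ep] at 4 h. At 12 h it was at 364.5 and 544 in DMSO, which lie far apart, and at 289 and 352 with [BF/S+L/Ep]. It fell with [BF/S+L/Ep] (-0.98, SE 0.20, adjusted p = 0.0198), and its change in DMSO was -0.55 (SE 0.20, adjusted p = 0.260).

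The chosen probe set of *Mcm2* had 1 array apart from its pair. In DMSO it went from 624 and 649 to 201 and 228, a change of -1.57 (SE 0.40, adjusted p = 0.0683), but with [BF/S+L/Ep] at 4 h it was 819.9 on 1 array and 243 on the other. Of all members it had the widest gap between arrays of that group, and its averaged change of -1.29 passed (adjusted p = 0.0138). A second probe set of *Mcm2*, dimmer on average, did not show this gap, with 262.4 and 224 on the same 2 arrays. It lay between 224 and 302.3 at 4 h and between 154.3 and 195.3 at 12 h. *Mcm3* changed by -0.27 and -0.32 and *Mcm4* by -0.53 and -0.19, and neither passed (adjusted p between 0.332 and 0.811). *Mcm4* overlapped between times with [BF/S+L/Ep] but not in DMSO.

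Origins are loaded by CDT1, which geminin (*Gmnn*) holds in check. *Cdt1* fell by 0.56 in both DMSO (SE 0.13, adjusted p = 0.0420) and [BF/S+L/Ep] (adjusted p = 0.0316), and each call was lost in 10 of 18 other settings, centring of each array among them. *Gmnn* fell by 0.68 (adjusted p = 0.0174) and 0.78 (adjusted p = 0.00591). *Pcna*, the sliding clamp of the fork, had signals between 12678 and 14049 at 4 h and between 8438 and 9656.5 at 12 h. Its fall was small, 1.46-fold and 1.51-fold, and its arrays did not overlap between times (adjusted p = 0.0162 and 0.00789). *Uhrf1*, which helps to copy DNA methylation at the fork, was between 141 and 237 at 4 h and between 71 and 107 at 12 h, and passed when averaged (-1.17, adjusted p = 0.0244).

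*Wdhd1*, a fork protein that links the helicase to DNA polymerase alpha, followed another pattern. Its signal was 156 and 150.1 in DMSO and 320 and 304 with [BF/S+L/Ep] at 4 h, and it was then 185 and 192 in DMSO and 139.5 and 152 with [BF/S+L/Ep] at 12 h. Both [BF/S+L/Ep] arrays at 4 h were above all 6 other arrays, while those other arrays lay close together. With [BF/S+L/Ep] it fell by 1.10 from 4 h to 12 h (SE 0.27, adjusted p = 0.04998, just under the threshold), and this call was lost in 13 of 18 other settings. In DMSO its change was 0.30 (SE 0.27, adjusted p = 0.750).

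Of the 4 genes of the G1/S step, 1 passed, in 1 of the treatments. *Ccnd1*, cyclin D1, which links growth signals to the cycle, had signals of 639.6 and 686.5 in DMSO at 4 h and 928 and 579 at 12 h, and its changes of 0.15 and 0.13 did not pass (adjusted p = 0.896 and 0.901). *Ccne1*, cyclin E1, which drives entry into S phase, lay between 274 and 344 at 4 h and between 88.8 and 148 at 12 h, without overlap. It fell with [BF/S+L/Ep] (2.83-fold lower, adjusted p = 0.0167) and its change in DMSO was -1.14 (adjusted p = 0.0804). *Ccne2*, the related cyclin E2, changed by -0.48 and -0.62 and *E2f1*, a transcription factor of S phase genes, by -0.66 and -0.14, and neither passed (adjusted p between 0.359 and 0.905).

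Of the cyclins and kinase of G2 and mitosis, all 3 measured beside *Foxm1* fell. *Ccnb2* had signals of 1579.6 and 1338 in DMSO and 1335 and 1388.5 with [BF/S+L/Ep] at 4 h, against 383 and 463, and 334 and 373, at 12 h. It fell by 1.79 in DMSO (SE 0.15, adjusted p = 3.15e-05) and by 1.95 with [BF/S+L/Ep] (SE 0.15, adjusted p = 1.67e-05). *Ccna2*, the cyclin of S and G2 phases, fell by 1.72 (adjusted p = 0.000208) and 1.64 (adjusted p = 0.000272). *Cdk1*, the kinase both cyclins bind, went from between 864 and 1169 at 4 h to between 380 and 592 at 12 h, a fall of 0.94 in DMSO (adjusted p = 0.0182) and 1.28 with [BF/S+L/Ep] (adjusted p = 0.00187). *Foxm1*, a transcription factor of mitotic genes, was between 68.4 and 190.2 with overlapping groups, and its changes of 0.62 and -0.58 did not pass (adjusted p = 0.695 and 0.690).

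The mitotic kinases and the checkpoint genes were lower at 12 h on every array. *Cdc20* had signals of 1789 and 1698 in DMSO and 1774 and 1591 with [BF/S+L/Ep] at 4 h, against 483 and 557, and 444.5 and 414, at 12 h. Its fall of 1.75 in DMSO (SE 0.14, adjusted p = 1.46e-05) and 1.97 with [BF/S+L/Ep] (SE 0.14, adjusted p = 6.46e-06) had some of the smallest p-values among members. *Bub1*, a checkpoint kinase at kinetochores, fell from 470.4 and 407 to 118 and 107 in DMSO and from 370.3 and 364 to 121 and 93.2 with [BF/S+L/Ep], and its relative *Bub1b* fell by 1.38 (adjusted p = 0.0126) and 1.23 (adjusted p = 0.0198). *Aurka*, which acts at spindle poles, and *Aurkb*, the kinase of the chromosome passenger complex, also fell in both treatments, *Aurka* by 1.19 and 1.37 and *Aurkb* by 1.33 and 1.34. *Plk1*, a kinase of mitotic entry and spindle assembly, was noisy. Its signals were 229.8 and 404 in DMSO and 270 and 359 with [BF/S+L/Ep] at 4 h, against 147 and 115.5, and 120.3 and 54.9, at 12 h, so that times did not overlap. It fell with [BF/S+L/Ep] (-1.94, SE 0.41, adjusted p = 0.0219), and its change in DMSO was -1.23 (SE 0.41, adjusted p = 0.191).

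All 4 genes of the chromosome passenger complex and the kinetochore fell in both treatments. *Birc5*, survivin, went from between 961 and 1194 at 4 h to between 279.7 and 362 at 12 h, a fall of 1.71 in DMSO (adjusted p = 8.94e-05) and 1.84 with [BF/S+L/Ep] (adjusted p = 4.6e-05). *Cenpa*, the histone of centromeres, had signals of 2181 and 2311 in DMSO and 2213 and 2481 with [BF/S+L/Ep] at 4 h, against 1112 and 1122, and 891 and 918, at 12 h. It fell by 1.01 (SE 0.11, adjusted p = 0.000349) and by 1.37 (SE 0.11, adjusted p = 2.17e-05). *Cdca8*, borealin, fell by 1.24 and 1.18, and *Cenpe*, the kinetochore motor, by 1.48 and 1.62.

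Of 8 genes of the spindle, its midzone and the chromosomes, 7 fell in both treatments. *Top2a*, which untangles copied chromosomes, had signals of 1069.5 and 1058 in DMSO and 1199.6 and 1051 with [BF/S+L/Ep] at 4 h, against 365 and 337, and 318 and 317, at 12 h. It fell by 1.60 (SE 0.15, adjusted p = 6.24e-05) and 1.82 (SE 0.15, adjusted p = 2.1e-05). *Prc1*, which bundles microtubules of the midzone, fell by 1.99 (adjusted p = 0.00185) and 2.12 (adjusted p = 0.001), and *Nusap1*, a spindle protein, fell by 1.84 (adjusted p = 3.89e-05) and 1.66 (adjusted p = 9.17e-05). *Mki67*, the gene of the proliferation antigen Ki-67, went from 1468 and 1508 to 577 and 659.8 in DMSO, and from 1482 and 1392 to 858 and 719 with [BF/S+L/Ep]. Its arrays at 12 h were higher with [BF/S+L/Ep] than in DMSO, and it fell by 1.27 (adjusted p = 0.000222) and 0.87 (adjusted p = 0.00354). *Kif20a*, a motor of cell division, fell by 1.41 and 1.89, *Tpx2* by 1.27 and 1.61. *Kif20a* lay between 73.8 and 106 at 12 h, near the reference, and was above it on 6 of 8 arrays. The size of its fall therefore rests on values near background. *Cdca3*, a trigger of mitotic entry, was 3.77-fold and 2.82-fold lower. *Kif11*, the motor that pushes spindle poles apart, did not pass in either treatment. Its signals were between 91.1 and 148 at 4 h and between 68.2 and 98.7 at 12 h, with overlap, and both DMSO arrays at 12 h were under the reference. In DMSO its mean at 4 h was 1.26-fold the reference at 12 h, and its change did not pass (adjusted p = 0.764). Its change with [BF/S+L/Ep] was -0.41 (adjusted p = 0.804). Its other probe sets, which were dimmer on average, had signals between 133 and 183 and between 101 and 156 at 4 h, and between 2.1 and 55.6 and between 4.2 and 68.5 at 12 h. Each had every array at 12 h under every array at 4 h and every group at 12 h under the reference. The mean of the first at 4 h was 1.72-fold the reference at 12 h in DMSO and 2.07-fold with [BF/S+L/Ep]. Neither passed in 1 treatment, and both fell when averaged (adjusted p = 0.0453 and 0.0223).

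**Figure D3:**
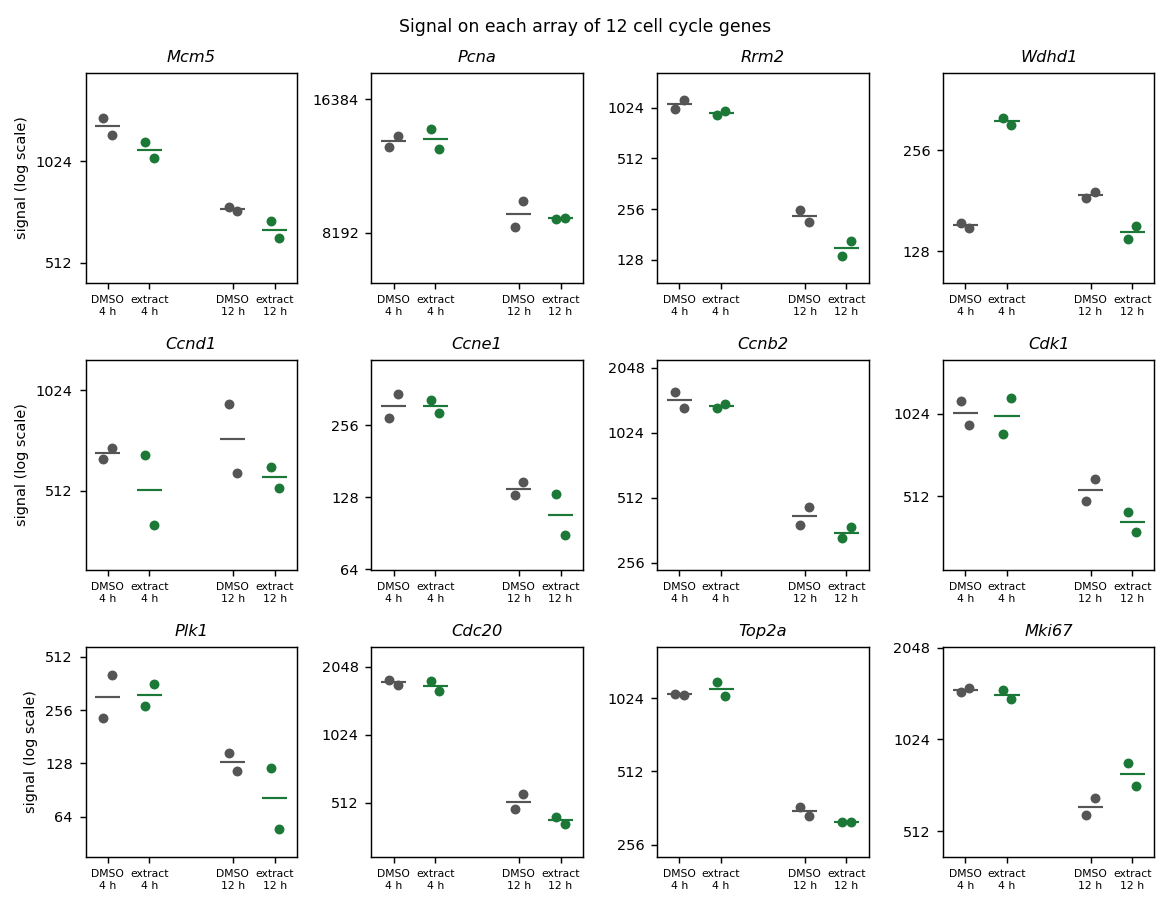
Signal on each array, on a log scale, of 12 members, with the 4 groups along each axis, 1 point for each array and a line at the mean of each group's log2 signals. *Rrm2*, *Ccnb2*, *Cdk1*, *Cdc20*, *Top2a* and *Mki67* have every array at 12 h under every array at 4 h, while *Wdhd1* is highest on the 2 [BF/S+L/Ep] arrays at 4 h and *Ccnd1* overlaps between groups.

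Without each array in turn, 12 of the 25 members kept their fall in DMSO. These were *Rrm2*, *Ccna2*, *Ccnb2*, *Bub1*, *Cdc20*, *Birc5*, *Cdca8*, *Cenpa*, *Nusap1*, *Top2a*, *Mki67* and *Cdca3*. With [BF/S+L/Ep], 15 of the 29 did, namely the same 12 with *Mcm7*, *Cdk1* and *Prc1*. The members that passed with [BF/S+L/Ep] but not in DMSO were *Mcm6*, *Wdhd1*, *Ccne1* and *Plk1*. For none of them did the difference between the 2 treatments' changes pass. That difference, [BF/S+L/Ep] minus DMSO, was -0.44 for *Mcm6* (95% confidence interval -1.06 to 0.19), -0.36 for *Ccne1* (-1.28 to 0.56), -0.71 for *Plk1* (-1.96 to 0.54) and -1.40 for *Wdhd1* (-2.23 to -0.57).

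Other probe sets of the members gave a partial repeat. From 23 members, 31 further probe sets exceeded the reference on 4 or more arrays. Of these, 28 were lower at 12 h in DMSO and 10 fell, and 27 were lower with [BF/S+L/Ep] and 10 fell, with none that rose. One disagreement was *Tpx2*, a spindle assembly factor, whose second probe set went up by 0.96 and 1.19 without passing (adjusted p = 0.561 and 0.385) where the chosen one fell by 1.27 and 1.61. Second probe sets of *Top2a* (-0.43 and -0.83) and *Cenpa* (-0.37 and -0.76) were lower but did not pass. Of the chosen probe sets, 11 have names ending in _x_at or _s_at, a sign that they may also match other transcripts.

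The rest of the pathway was read from 5 further lists. Of 58 other mitosis genes, 26 fell in DMSO and 32 with [BF/S+L/Ep], with medians of -1.30 and -1.42, and none rose. Among them, *Stmn1*, a microtubule regulator, fell by 1.95 and 2.42, and *Ube2c*, the partner of the ligase that CDC20 activates, by 1.79 and 1.94. *Pttg1*, securin, fell by 1.68 and 1.69. *Mad2l1*, a spindle checkpoint gene, fell by 1.22 and 1.46. Of 29 measured genes of DNA polymerases and fork proteins, 3 fell in DMSO (*Rpa1*, *Asf1b* and *Dut*) and 5 with [BF/S+L/Ep] (*Rpa1*, *Dut*, *Prim1*, *Clspn* and *Tipin*), while 16 fell when averaged. *Dut*, which removes dUTP, fell by 1.01 and 1.16. Of 16 genes of origin licensing and firing, 0 and 1 fell, the latter being *Dbf4*, an activator of origin firing (-0.62). Of 18 other G1 cyclins, kinases and E2F genes, none passed in either treatment, and 3 in DMSO and 2 with [BF/S+L/Ep] had an unadjusted p under 0.05 and a lower level. Of 20 measured cell cycle brakes, *Tob1*, an antiproliferative gene, fell by 0.58 and 0.52. When averaged, 2 of the 20 fell and 2 rose, the latter being *Gadd45a* and *Gadd45b*, which respond to stress (0.52 and 0.58). Also when averaged, 3 of the 16 origin genes fell and 1 rose, and 1 of the 18 G1 and E2F genes fell. In that comparison 3.18% of all probe sets and 8.23% of the genes above the reference fell. Of all 45037 probe sets 1645 rose, and of the 10879 genes above the reference 805 did. These small counts were not tested against those shares.

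Motifs in the promoters differed between S phase and mitosis genes. RefSeq windows on GRCm38.p6, from 250 bases before to 50 after a start, were given for 33 members in 36 windows and for 27025 genes in 32851 windows. Both strands were searched for the E2F-type motifs TTTGGCGC, TTTCCCGC and TTCCCGCC, of which the last 2 overlap each other, for the CHR (TTTGAA or TTCGAA) and for CCAAT. An E2F-type motif was in 3.21% of all windows, in 8 of 16 windows of S phase members (50%) and in 0 of 18 windows of G2 and mitosis members. A CHR was in 19.2% of all windows, in 12.5% of S phase windows and in 15 of 18 G2 and mitosis windows (83.3%). CCAAT was in 37.4%, 68.8% and 88.9% of them. In the promoters printed above, *Mcm5* has an E2F-type motif starting 149 bases before the start and *Mcm6* has 2, while *Cdc20* has a CHR 18 bases before it between 2 CCAAT boxes. *Ccnb2* has a further CHR just after its start. The window of *Rrm2*, the S phase member that fell most, holds a CCAAT box but neither of the other motifs. These are matches of letters, and no binding was measured. Both windows of *Prc1* overlap, so windows are not independent.

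**Figure D4:**
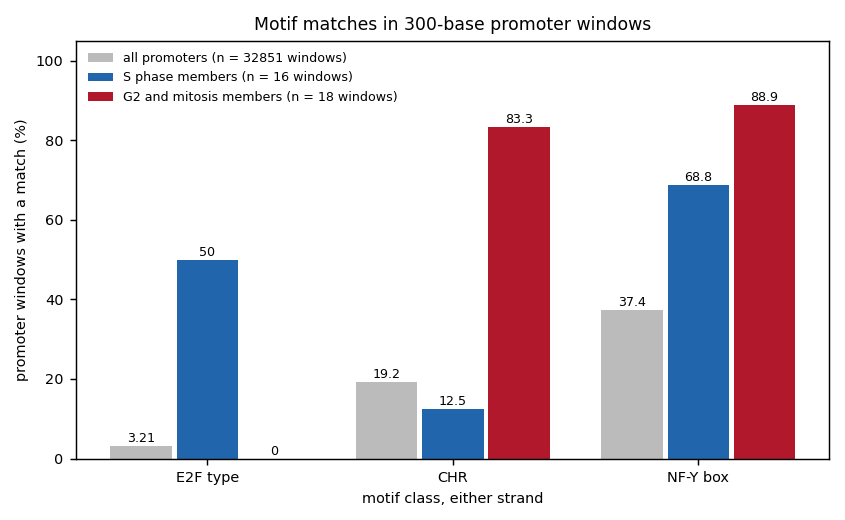
Percentage of 300-base promoter windows with at least 1 match on either strand to an E2F-type motif, a CHR or a CCAAT box (labelled NF-Y box, after the factor that binds it), for all promoters (grey), S phase members (blue) and G2 and mitosis members (red). E2F-type motifs stand out in S phase windows (50%) and CHR in G2 and mitosis windows (83.3%), against 3.21% and 19.2% of all windows.

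No member differed between [BF/S+L/Ep] and DMSO at an adjusted p under 0.05 at 4 h or at 12 h. This is beside 0.00444% of all probe sets at 4 h, 0.0200% at 12 h and 0.107% when averaged over both times, where again 0 members passed. By unadjusted p under 0.05, limma found 1 member at 4 h, 4 at 12 h and 4 when averaged, where 4.97%, 5.96% and 7.08% of all probe sets were found, so that these counts are near the background. The median difference of the 42 members was -0.05 at 4 h and -0.14 at 12 h, beside -0.02 and -0.03 over all probe sets. For 33 members at 4 h and 31 at 12 h, the 95% confidence interval of the difference lay within 2-fold either way. For the rest, a difference of 2-fold was not excluded at this number of arrays.

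At 4 h the 1 member was *Wdhd1*, higher by 1.03 (SE 0.27, unadjusted p = 0.00232, adjusted p = 0.864). It was also the only member past the 2-fold rule, which 0.229% of all probe sets passed at 4 h and 0.302% at 12 h, where 0 members did. The study itself lists *Wdhd1* among genes raised at least 2-fold at 4 h. Its list came from these same arrays, so this is not a separate observation. At 12 h, *Rrm2* was at 254 and 214 in DMSO and 135 and 166 with [BF/S+L/Ep], a difference of -0.64 (SE 0.19, adjusted p = 0.566). *Mcm6* differed by -0.48 (adjusted p = 0.812) and *Cenpa* by -0.31 (adjusted p = 0.745). *Mki67* differed by 0.35 the other way (adjusted p = 0.769). These were the 4 members with an unadjusted p under 0.05 at 12 h. For each of them, the arrays of the 2 treatments at 12 h did not overlap. A choice by p favours arrays that do not overlap, so this adds no support.

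At 12 h, 15 of the 42 members had both [BF/S+L/Ep] arrays under both DMSO arrays and 3 had them over, with 24 overlapping. Both arrays lay under for 22.1% of the genes above the reference. At 4 h, 6 members lay under and 3 over, where 17.4% of those genes lay under. The share of genes with both arrays over was not counted at either time. For the difference between the 12 h and 4 h responses, 0 members passed, and 2 had an unadjusted p under 0.05, *Wdhd1* (-1.40) and *Cenpa* (-0.37), where 3.66% of all probe sets had one. None of the 5 further lists had a gene that passed at either time.

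**Figure D5:**
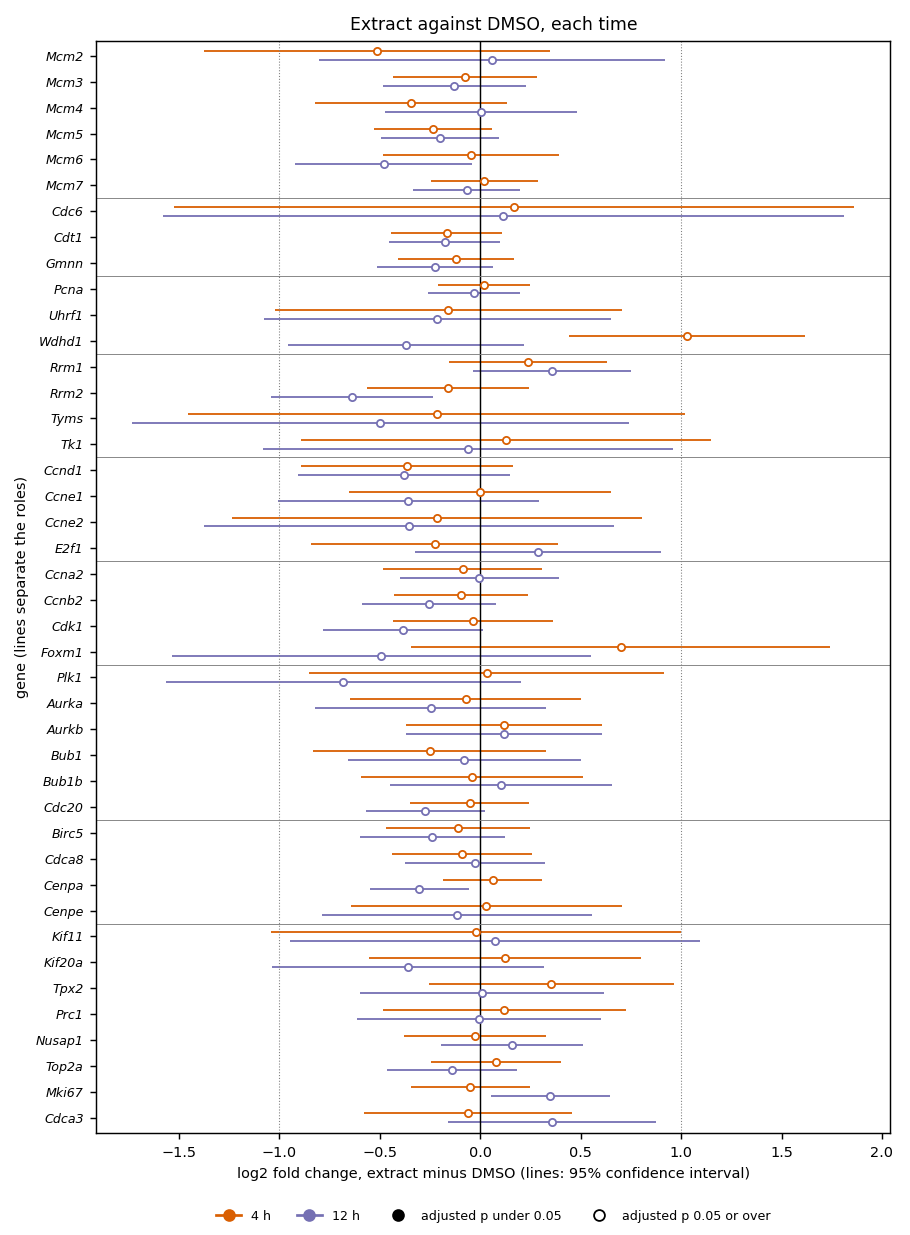
Log2 fold change of [BF/S+L/Ep] (labelled extract) against DMSO for each of the 42 members at 4 h (orange) and 12 h (purple), with lines for the 95% confidence interval and open points where the adjusted p was 0.05 or over. Every point is open, and the interval of *Wdhd1* at 4 h and those of *Rrm2*, *Mcm6*, *Cenpa* and *Mki67* at 12 h leave out 0.

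Other cell types were read beside these values. Markers of conventional dendritic cells all exceeded the reference on 4 or more arrays (14 of 14), with a summed signal between 239933 and 253160 at 4 h and between 224087 and 242102 at 12 h. Of 13 measured macrophage markers 10 were above it, with sums between 119335 and 128136 at 4 h and between 132706 and 140925 at 12 h. Of the 13, 5 rose in DMSO and 4 with [BF/S+L/Ep], where 533 and 698 of all 45037 probe sets rose. Among genes above the reference, 323 and 391 of 10879 rose. Of the dendritic cell markers, 1 rose and 1 fell in DMSO, and 1 rose and 2 fell with [BF/S+L/Ep]. In each treatment 1 neutrophil marker rose, and 1 platelet marker rose in DMSO and 2 with [BF/S+L/Ep]. With [BF/S+L/Ep], 1 of 6 measured markers of plasmacytoid dendritic cells and 1 of 8 of T and NK cells also rose. Of those 6 plasmacytoid markers, 4 were above the reference on 4 or more arrays. Among the macrophage markers, *Vsig4* and *Marco* were under the reference on all arrays. Of 9 stem and progenitor markers 4 were above it, with sums between 1392.5 and 1563.7 at 4 h and between 1623 and 1913 at 12 h, and 0 of them passed between times in either treatment. *Myb*, *Erg* and *Mecom* were under it on all arrays. The neutrophil sum was between 3618 and 4439.7 at 4 h and between 3699 and 4169 at 12 h, with *Elane*, *Prtn3*, *Ctsg* and *Cxcr2* under the reference. The sum of platelet markers was between 12906 and 18916 at 4 h and between 20062 and 29825 at 12 h, highest with [BF/S+L/Ep]. Yet 5 of the 7 measured were lower with [BF/S+L/Ep] than in DMSO at 12 h, and the highest change was that of *Ppbp* (1.47). The study names this gene *Cxcl7* and lists it among those raised by [BF/S+L/Ep]. The sum of erythroid markers, of which 1 of 9 was above the reference on 4 or more arrays, was between 2050 and 2575 in DMSO and between 3768.5 and 4523 with [BF/S+L/Ep] at 12 h. Yet 7 of these 9 were lower with [BF/S+L/Ep] than in DMSO at 12 h (median -0.69), and the highest change was that of *Car2* (0.99). Of markers of B cells 2 of 8, of T and NK cells 1 of 8, and of mast cells 1 of 9 were above the reference. The signal ratio of the 3′ to the 5′ probe set of *Gapdh*, a sign of RNA quality, was between 0.702 and 0.756 at 4 h and between 0.652 and 0.685 at 12 h. The part of any of these in the members' levels was not tested.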

How the data were processed

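The values were MAS5 signals, intensities that the authors deposited after scaling each array to a trimmed mean of 500 (2% trimmed at each end). No source used here gives the MAS5 version. Of 45101 probe sets, 64 controls were left out and 45037 were kept, with 34945 of them carrying a single symbol. Log2 signals of all 8 arrays were fitted as 4 group means with limma 3.58.1 in R 4.3.3 (lmFit, then eBayes with an intensity trend, 4 residual and 8.833 prior degrees of freedom). Tests were two-sided, adjusted by Benjamini-Hochberg over all probe sets, with a threshold of 0.05. The 7 comparisons were [BF/S+L/Ep] against DMSO at 4 h, at 12 h and averaged, 12 h against 4 h in each treatment and averaged, and the difference between responses. The script was tested on simulated data. Arrays have no read depth, and their number limits the precision. Averages over 4 arrays share arrays with the single comparisons. The sources give GM-CSF at 200 or 1000 U/mL and 10 or 7 µg of RNA.

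The members, the further gene lists, the motifs and the tests were chosen with earlier results of these data known. Each member is named, with some of the other probe sets whose call or direction differed in a comparison that either probe set passed. Of each further list, up to 4 genes with the smallest p among those called are named. *Prim1* was named beyond this rule, after its values were seen. The second probe set of *Mcm2* was also added after its values were seen. Alternatives were other normalisations, an offset, filters on dim probe sets, no trend, robust moderation, a replicate block, the 2-fold rule, only the arrays compared, all probe sets, and each array left out. Figures were drawn with matplotlib 3.10.9. Promoters came from RefSeq (GRCm38.p6).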

Additional observations from a re-analysis of the deposited data

How the results depend on the processing

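Over 18 alternatives, the calls of members in DMSO and with [BF/S+L/Ep] gave 972 values, of which 788 kept the call, 184 lost it and 0 reversed. Counts of members that fell from 4 h to 12 h were 0 in DMSO, 0 with [BF/S+L/Ep] and 13 averaged without the intensity trend. Leaving out each array in turn gave 13 to 24 in DMSO, 17 to 28 with [BF/S+L/Ep] and 28 to 31 averaged. The count in DMSO was 13 without DMSO replicate 1 or 2 at 4 h or replicate 1 at 12 h, and 15 without replicate 2 at 12 h, and with [BF/S+L/Ep] it was 17 without its replicate 1 at 4 h and 19 without either of its arrays at 12 h. The 2-fold rule gave 18 with [BF/S+L/Ep] and 1 for [BF/S+L/Ep] against DMSO at 4 h. The replicate block gave 26, 28 and 31. Deviations of same-numbered arrays correlated between -0.029 and 0.109, which cannot tell whether the replicate numbers pair the samples. No source used here states such a pairing. Median changes of members in DMSO moved to -1.27 with quantile normalisation, -1.24 with centred arrays, -0.95 with an offset of 50, -0.82 over all probe sets, and between -1.18 and -1.03 without single arrays. With [BF/S+L/Ep] they moved to -1.004 with the offset, -0.78 over all probe sets, and between -1.34 and -1.13 without single arrays, and averaged to -1.04 and -0.79. The median difference between responses lay between -0.15 and -0.021 without single arrays. The cause was not tested. Neither the averages nor the difference between responses was run with only the arrays compared or with the 2-fold rule.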
